A study of Mus musculus with 4 samples.

Results

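Cells of the metaphyseal stroma that express both matrix proteases *Mmp9* and *Mmp13* were examined in 4 droplet-based scRNA-seq libraries of bone cells. A barcode was taken as a member of this population where it held at least 2 UMIs (unique molecular identifiers, each marking 1 captured transcript) of *Mmp9* and at least 2 of *Mmp13*. It also had to lack UMIs of the endothelial gene *Cdh5* and of the leukocyte gene *Ptprc*, hold at most 1 UMI of the osteocyte gene *Mepe*, and stay per 10000 UMIs under 200 of the osteoblast gene *Bglap* and under 20 each of the cartilage genes *Col2a1* and *Col10a1*. This rule found 300 members among 24920 barcodes that passed the quality filter. The members were thus chosen by their measured counts of these 8 genes, whose levels are given as a description without a test. *Mmp9* (ENSMUSG00000017737) lies on the plus strand of chromosome 2 of GRCm39 from 164780439 to 164797771, and *Mmp13* (ENSMUSG00000050578) on the plus strand of chromosome 9 from 7272514 to 7283331.

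Both groups were 12-week-old mice on a C57/BL6 background. Mutants (Lats2iECKO) carried *Lats2* lox/lox alleles and the *Cdh5(PAC)-CreERT2* transgene, in which an endothelial promoter drives a tamoxifen-inducible recombinase, and the controls were littermates without Cre. Tamoxifen went to mutants and controls alike according to the methods of the study, although the labels call the controls untreated. Cells came from the metaphysis of femur and tibia and were depleted of lineage-positive, CD45+ and CD117+ cells, and the recombinase was not directed at cells other than endothelial ones. Each genotype had 2 libraries, which the labels call biological replicates, and the number of animals behind each library is not given in the sources used here.

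The mutant libraries held 69636600 and 78953446 UMIs and the control libraries 83453507 and 85899079, and between 5167 and 6925 barcodes per library passed. No member barcode was shared between libraries, and 7 to 16 passing barcodes were shared per pair of libraries. In endothelial barcodes, *Lats2* stood at 83.1 and 86.9 CPM (counts of a gene per 1000000 UMIs of the summed barcodes) in mutants and at 111 and 101 CPM in controls, and the *CreERT2* sequence at 43.3 and 39.3 CPM against 0.717 and 0.616 CPM. In the members themselves *Lats2* showed 70.3 and 78.8 CPM in mutants and 80.1 and 83.1 CPM in controls, a log2 fold change of −0.07 (standard error 0.216) that did not pass the test (adjusted p = 0.868, quasi-likelihood test of edgeR, adjusted by the Benjamini-Hochberg method). *CreERT2* reached 0.888 CPM in the members of 1 mutant library and was at 0 in those of the other 3.

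MMP9, a gelatinase, and MMP13, a collagenase, are secreted zinc proteases that cut denatured and fibrillar collagens. In the metaphysis they take part in the removal of mineralized cartilage below the growth plate, where vessels grow in and bone is laid down. Osteoclasts, vessel-associated stromal cells called septoclasts, hypertrophic chondrocytes and cells of the osteoblast lineage are all known to make such proteases, and stromal cells also steer osteoclasts through RANKL, encoded by *Tnfsf11*.

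The members were stromal by their transcripts and most osteoclast markers were low in them. *Runx2*, a transcription factor of the osteoblast lineage, and *Pdgfrb*, a receptor of mesenchymal cells, were detected in the same barcode in 85.9% and 92.0% of members of the mutant libraries and in 94.6% and 95.4% of those of the controls. *Acp5*, which encodes the osteoclast phosphatase TRAP, reached only 2.64 to 4.20 CPM, and 7 of 10 osteoclast markers stayed under 10 CPM in the members of all libraries, 2 of them at 0. The exceptions were *Ctsk*, a collagen-degrading cathepsin also made by other cells, with 170 to 180 CPM, the integrin gene *Itgb3* with 39.1 and 90.7 CPM in mutants and 154 and 58.8 CPM in controls, and *Csf1r* with 20.4 and 14.97 CPM in mutants and 1.54 and 0 CPM in controls. *Csf1r*, a receptor of macrophages and osteoclasts, was detected in 14.1% and 13.8% of mutant members and in 1.79% and 0% of control members. The summed level of the 10 osteoclast markers was 234 and 283 CPM in mutants and 345 and 238 CPM in controls, and at least 1 UMI of an osteoclast marker other than *Ctsk* or of a leukocyte marker lay in 58.7% and 63.2% of mutant members and in 58.9% and 52.3% of control members.

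Of the markers that came with the name of the population, *Mmp14* was the broadest. It encodes a membrane-bound metalloprotease that activates other MMPs, and a UMI of it was found in 98.9% and 97.7% of mutant members and in 98.2% and 96.9% of control members, against 37.6% to 46.1% of endothelial barcodes. *Tnfsf11* was detected in 76.1% and 72.4% of mutant and in 64.3% and 55.4% of control members, with 2.03% to 2.91% in endothelial barcodes. *Mmp11*, a further metalloprotease, was detected in 38.04% and 39.1% of mutant and in 46.4% and 30.8% of control members, with 3.01% to 5.88% in endothelial barcodes. Its mean level over the 4 libraries was 62.7 CPM in members and higher, at 91.5 CPM, in the class of mural barcodes. Endothelial barcodes had median depths of 7650, 7018.5, 6418 and 6095 UMIs, against 12287, 10759, 10079.5 and 9217 UMIs in the members of the same libraries. *Egln3*, the fourth marker, encodes a prolyl hydroxylase of the oxygen-sensing pathway. It was detected in 57.6% and 59.8% of mutant members but in 3.57% of the members of control 1 and in 0 of 65 of control 2, where 3 counts of 65 would be 4.62% and the exact upper limit was 5.52%. That limit covers counting error only. In endothelial barcodes *Egln3* was detected in 11.8% and 12.9% of mutant and in 2.08% and 1.81% of control barcodes. Its mean level over the 4 libraries was 104 CPM in members and 102 CPM in the mural class.

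Of 6 markers of septoclasts, *Dpp4* alone was at 0 in all members. *Pdgfrb* was detected in 95.4% to 98.9%, *Mmp14* in 96.9% to 98.9% and *Ctsb* in 86.2% to 94.6% of the members of each library. *Fabp5*, which encodes a fatty acid-binding protein, stood at 438 and 96.9 CPM in mutants and 283 and 183 CPM in controls. The pericyte proteoglycan gene *Cspg4* stood at 228 and 236 CPM against 49.3 and 68.6 CPM. A UMI of *Fabp5* lay in 41.3% and 34.5% of mutant and in 21.4% and 21.5% of control members. The shares in endothelial barcodes were 47.0% and 46.5% in mutants and 24.5% and 24.3% in controls. *Ctsb* was detected in 74.7% to 76.5% of endothelial barcodes and *Pdgfrb* in 8.59% to 10.6%.

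All 24920 barcodes were assigned to 12 classes by single genes, with the members as the first class. Among 2683 genes at 50 CPM or more in the members of every library, 345 were higher in the members than in any other class and 34 more than 2 times higher. Apart from the 2 proteases of the rule, the ratio of the mean over the 4 libraries to that of the highest other class was largest for *Ptprv* (8.0), a receptor-type phosphatase gene of bone cells, followed by *Mmp14* (5.15), *Fancc* (3.88), *Gm16083* (3.70), *Reps2* (3.59), the cathepsin gene *Ctsc* (3.56) and *Tnfsf11* (3.39). The extracellular matrix genes *Olfml2b* (3.33) and *Podnl1* (3.0), the membrane-anchored semaphorin gene *Sema7a* (3.0) and the Notch target *Hey1* (2.99) came next. This order depends on both genotypes, since *Fancc* stood at 151 and 152 CPM in mutants and 359 and 413 CPM in controls and *Tnfsf11* was higher in mutants. For these leading genes the second highest class was mostly the *Wif1*-positive metaphyseal stromal class or the *Lepr*- and *Adipoq*-positive reticular class. In the members *Ptprv* stood at 55.9 and 50.2 CPM in mutants and 75.4 and 61.6 CPM in controls, against 7.6 CPM in the osteocyte-like class.

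**Figure D1:**
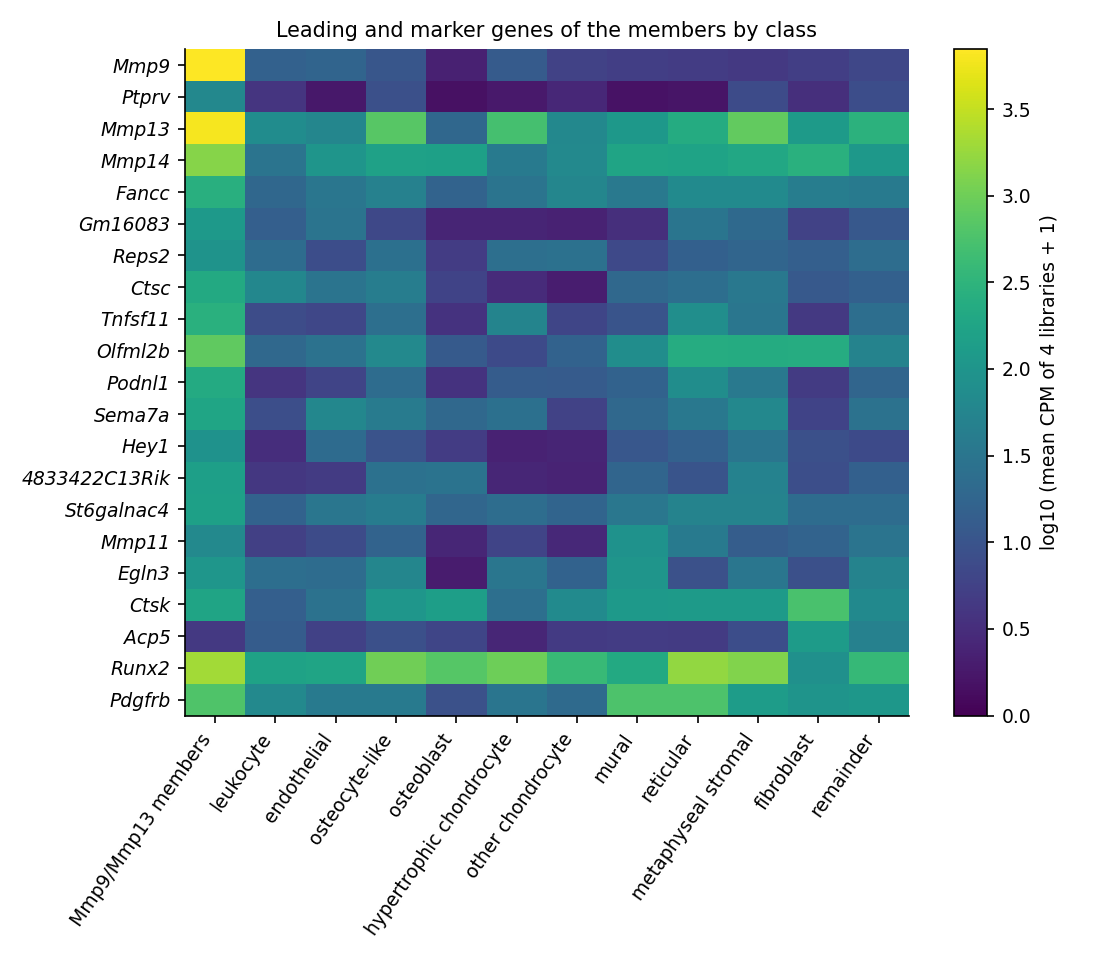
Mean level of leading and marker genes (rows) in each class of barcodes (columns), as log10 of the mean CPM of 4 libraries plus 1. *Mmp9* and *Mmp13* are bright in the member column by the rule, *Mmp14*, *Ctsc* and *Tnfsf11* are brightest there without being part of it, and the osteoclast gene *Acp5* is dark in the member column. *Mmp11* is brighter in the mural column than in the member column.

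Members made up a larger share of the mutant libraries. They numbered 92 and 87 in the mutants and 56 and 65 in the controls, that is 1.78% (exact 95% interval 1.44 to 2.18) and 1.47% (1.18 to 1.80) against 0.809% (0.611 to 1.05) and 0.943% (0.729 to 1.20) of passing barcodes, intervals that cover counting error only. The mean share was 1.62% ± 0.223 in mutants and 0.876% ± 0.0952 in controls (SD, n = 2), a ratio of 1.85, and both mutant libraries lay above both controls. In the quasi-likelihood test of edgeR on the numbers of barcodes per class the log2 fold change was 0.88 (standard error 0.160, Benjamini-Hochberg adjusted p = 1.76e-05), and 10 of 12 classes (83.3%) passed that test. A 2-sided exact permutation test gave p = 0.333, which is as low as it can go with 2 libraries per genotype.

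The content of mural transcripts differed as well. A UMI of at least 1 of 6 mural genes (*Rgs5*, *Kcnj8*, *Acta2*, *Tagln*, *Myh11*, *Des*) lay in 44.6% and 69.0% of mutant members but in 14.3% and 20% of control members. Without the members that held one, 51 and 27 mutant and 48 and 52 control barcodes were left, and the log2 fold change of their number was −0.03 (adjusted p = 0.926), an alternative chosen after the data were seen. This value follows from the shares just given and is no separate test, since *Kcnj8* and *Acta2* were themselves higher in mutants. The part that mural RNA has in the result was not tested. Thinned to 2000 UMIs per barcode, the shares were 1.16% and 0.933% in mutants against 0.510% and 0.619% in controls, so the order held at equal depth.

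The rule set its thresholds within a continuous range of protease levels. In all, 316 barcodes held at least 2 UMIs of both proteases, and 16 of them failed another condition, mostly *Col2a1* (8) or *Cdh5* (6). Just inside the threshold, 26 members held at least 2 but under 3 UMIs of *Mmp9*, and 11 held that many of *Mmp13*. Just outside, 74 barcodes held at least 1 but under 2 UMIs of *Mmp9* beside at least 2 of *Mmp13*. Barcodes with at least 2 UMIs of *Mmp13* under the same exclusions numbered 453 and 557 in mutants and 769 and 755 in controls, and with this gate alone the log2 fold change of the number was −0.28 (adjusted p = 0.00466). Among these *Mmp13* barcodes, members made up 20.3% and 15.6% in mutants and 7.28% and 8.61% in controls.

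**Figure D2:**
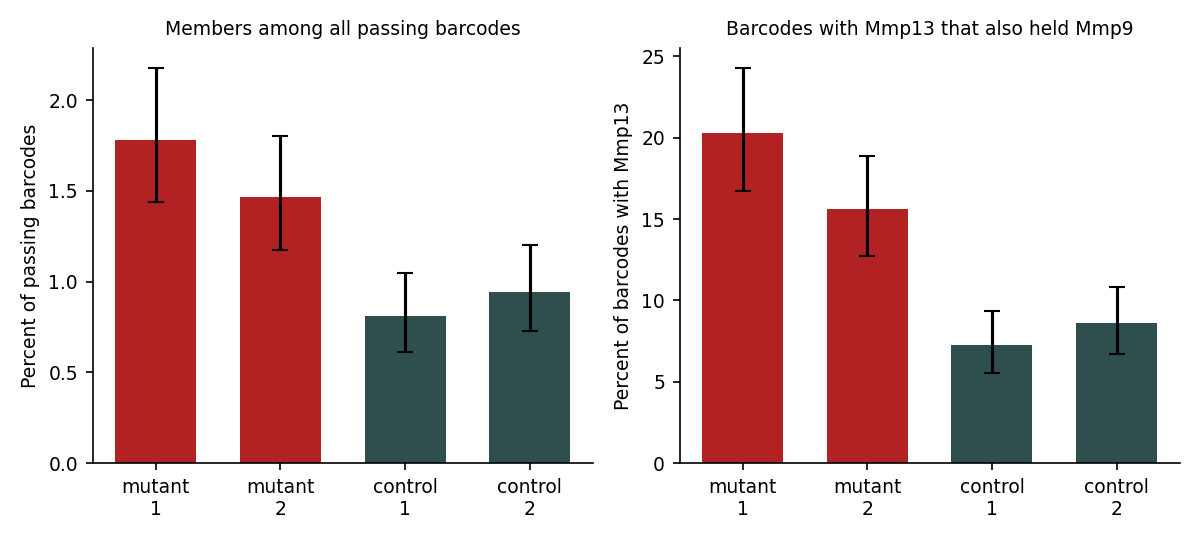
Members as a percentage of all passing barcodes (left) and of barcodes with at least 2 UMIs of *Mmp13* (right) in each library, with mutants in red, controls in dark grey and exact 95% intervals as error bars. Both mutant libraries sit above both controls in each panel, at 1.47% to 1.78% against 0.809% to 0.943% on the left and 15.6% to 20.3% against 7.28% to 8.61% on the right.

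Within the members, *Mmp9* stood at 9596 and 6210 CPM in mutants and 6425 and 5761 CPM in controls. *Mmp13* stood at 5802 and 5018 CPM in mutants and 8399 and 5686 CPM in controls. The levels varied widely from cell to cell: the middle 50% of members ranged from 12.7 to 115 *Mmp9* UMIs per 10000 in mutant 1 and from 3.58 to 73.7 in control 1. The *Mmp9* medians per 10000 UMIs were 37.1 and 34.0 in mutants and 18.3 and 14.3 in controls, and the *Mmp13* medians 28.3 and 33.8 against 64.4 and 41.4.

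To see how the members differed between genotypes, their counts were summed per library and 7281 genes with enough counts were tested. A gene was called where its adjusted p was 0.05 or less and its log2 fold change at least 1 in either direction. The members of mutants had 313 genes higher (4.3% of those tested) and 340 lower (4.67%), together 653 (8.97%). The 2 mutant libraries lay on one side of the 2 controls for all 653, and for 4284 of all genes tested (58.8%). The median log2 fold change over all genes tested was −0.02. A gene entered the test where at least 20% of the members of either genotype held a count, so that a gene found in mutants alone passed through the group in which it was high. The gene lists below are therefore also counted over the 5976 genes that reached this share in both genotypes, of which 159 were higher (2.66%) and 182 lower (3.05%), an alternative chosen after the data were seen. Of 34 called genes named here or held by the lists that passed through 1 genotype alone, 31 were also called when all 20949 genes were tested without the filter (adjusted p up to 0.0339), the exceptions being *Prg4*, *Wnt5a* and *Col11a2* (adjusted p = 0.132, 0.129 and 0.129). Without the members that held a mural UMI, 105 genes were higher and 124 lower, and of the 579 called genes that could still be tested 213 were called again and all 579 kept their sign. Without those that held an osteoclast or leukocyte UMI, 476 of the called genes could be tested, of which 194 were called again and 470 kept their sign. The count of higher genes was 208 without mutant 2, that of lower genes 163 without mutant 1, and DESeq2 called 166 higher and 173 lower. Of the genes named below, DESeq2 did not call *Acta2*, *Amotl2*, *Chad*, *Col11a2*, *Crim1*, *Egln3*, *Lox*, *Prg4*, *Rgs4*, *Sema3a*, *Tgfb2* and *Wnt5a* (adjusted p between 0.0503 and 0.400).

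Of the 10 largest rises *Mgp* alone was found in enough members of both genotypes, while the other 9 passed the filter through mutants alone. *Mgp*, which encodes matrix Gla protein, an inhibitor of calcification, stood at 8043 and 7834 CPM in mutant members and at 420 and 480 CPM in control members (log2 fold change 4.20, standard error 0.127, adjusted p = 2.24e-09). *Ndufa4l2*, a hypoxia-induced gene of a mitochondrial protein, stood at 280 and 206 CPM against 4.62 and 8.40 CPM (5.24, standard error 0.324, adjusted p = 2.67e-06). Free RNA was estimated to give 4.59 CPM of *Ndufa4l2* and 330 CPM of *Mgp* in control 1, so that its *Ndufa4l2* cannot be told from background. *Egln3* stood at 172 and 232 CPM in mutants and at 10.8 and 0 CPM in controls (5.32, standard error 0.503, adjusted p = 4.38e-05). Only 7 *Egln3* UMIs lay in control members, 71.4% of those of control 1 in a single barcode, and with DESeq2 the call was lost (adjusted p = 0.0747). *Slc16a3*, which exports lactate, had 80 UMIs in mutant and 2 in control members, a ratio of 24.1 after scaling (counting interval 6.46 to 203).

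Few UMIs of the next genes lay in control members. *Kcnj8*, a potassium channel subunit of pericytes, had 118 UMIs in mutant and 3 in control members, a ratio of 23.7 (counting interval 7.92 to 117). *Aoc3*, an amine oxidase of smooth muscle and fat, had 90 UMIs against 1, a ratio of 54.3 (9.50 to 2167). *Rgs4*, a regulator of G protein signalling, stood at 34.6 and 101 CPM against 0 and 5.60 CPM (4.54, adjusted p = 0.00223, and 0.0726 with DESeq2). The lncRNA *Gm26802* had 97 UMIs against 2, a ratio of 29.3 (7.88 to 245). These genes, *Kcnj8*, *Aoc3*, *Rgs4* and *Gm26802*, could not be tested without the members that held a mural UMI. *Aoc3*, *Rgs4*, *Gm26802*, *Slc16a3* and *Prg4* could not be tested without those that held an osteoclast or leukocyte UMI.

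The other 2 rises among the 10 largest were uncertain. *Rps3a3*, a transcribed processed copy of a ribosomal protein gene whose reads can be shared with its parent, stood at 457 and 445 CPM against 5.35 and 16.2 CPM. It also rose in the other classes compared below, by 5.24 in metaphyseal stroma, 7.20 in hypertrophic chondrocytes and 5.53 in osteoblasts on the log2 scale, and no difference from the members passed the test (differences 0.20, −1.70 and −0.01, adjusted p = 0.890, 0.113 and 0.998). *Prg4*, which encodes the joint lubricant lubricin, stood at 733 CPM in mutant 1 but at 24.7 CPM in mutant 2, close to the 18.5 and 21.0 CPM of controls and to the 23.9, 49.7 and 23.1 CPM that free RNA was estimated to give in these 3 libraries, and 94.3% of its UMIs in mutant 1 lay in a single barcode. Without mutant 1 its log2 fold change was 0.38 (adjusted p = 0.618).

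The 10 largest falls all passed the filter through controls alone. *Pdgfd*, a ligand of the PDGF receptor beta, stood at 0.888 and 3.52 CPM in mutant and at 44.7 and 60.2 CPM in control members (−4.43, standard error 0.465, adjusted p = 8.95e-05). *Hp*, which encodes the haemoglobin-binding protein haptoglobin, stood at 13.3 and 22.02 CPM against 226 and 265 CPM (−3.72, standard error 0.254, adjusted p = 5.49e-06). *Cadps2*, a gene of vesicle exocytosis, stood at 1.78 and 11.7 CPM against 149 and 157 CPM (−4.44, standard error 0.409, adjusted p = 3.64e-05). *Limch1*, an activator of non-muscle myosin, stood at 60.4 and 34.4 CPM against 476 and 438 CPM (−3.20, standard error 0.237, adjusted p = 7.74e-06). The complement component gene *C6* (−3.23) and the stress-response gene *Ddit4l* (−3.11) also fell, as did *Adarb2* (−3.27). *Gvin2* (−4.51) and *Gm4951* (−3.62), both members of families of interferon-inducible GTPases whose close copies can share reads, fell from 120 and 34.8 CPM to 4.88 and 1.17 CPM and from 60.9 and 22.4 CPM to 2.66 and 3.52 CPM. *Tnik* (−3.30), a kinase of the Wnt pathway, had 78.2% of its UMIs of control 1 in a single barcode. Without the members that held an osteoclast or leukocyte UMI, the calls of *Tnik* (−1.52, adjusted p = 0.0788), *C6* (−2.44, adjusted p = 0.0644) and *Ddit4l* (−2.81, adjusted p = 0.0519) were lost, and that of *Ddit4l* also without those that held a mural UMI (−2.21, adjusted p = 0.0518).

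**Figure D3:**
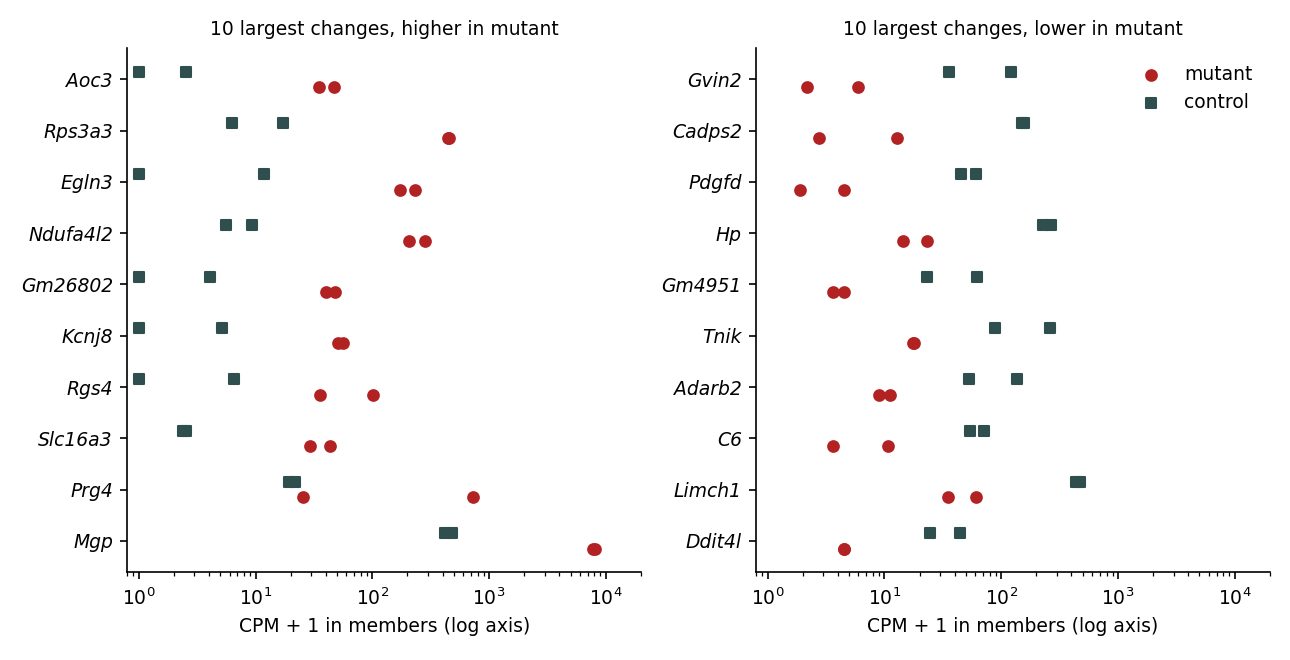
Level in members of the 10 genes with the largest rise (left) and the 10 with the largest fall (right) among called genes, as CPM plus 1 on a log axis. Red circles are the 2 mutant and dark grey squares the 2 control libraries. Lack of overlap between the genotypes was a condition for choosing these 20 genes, and *Prg4* shows 1 mutant library close to the controls.

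The proteases of the members did not move as a group. Of 25 metalloproteases of the MMP, ADAM and ADAMTS families besides the 2 of the rule, 12 could be tested, 2 rose and 4 fell, and of the 9 found in both genotypes none rose and 3 fell (median −0.19). Both rises passed the filter through mutants alone, and *Mmp16* through controls alone. *Adamts1* stood at 97.7 and 113 CPM in mutants and 23.1 and 30.8 CPM in controls (2.02, adjusted p = 0.000304). *Adamts4*, an aggrecanase, stood at 82.6 and 89.8 CPM against 20.02 and 28.0 CPM (1.89, adjusted p = 0.000536). The falls were those of the membrane-bound *Mmp16* (12.4 and 21.1 against 126 and 115 CPM, −2.77), of the aggrecanase gene *Adamts5* (−1.41), of *Adamts9* (−1.36) and of *Adam12* (−1.34). Among members free of mural UMIs, *Adamts1* and *Adamts5* were still called, while *Adamts4* had 1.43 (adjusted p = 0.0824), *Mmp16* −1.85 (adjusted p = 0.114), *Adam12* −1.03 (adjusted p = 0.0565) and *Adamts9* −0.88 (adjusted p = 0.0630). Without those that held an osteoclast or leukocyte UMI, *Adamts4* alone of the 6 lost its call (1.70, adjusted p = 0.0808).

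*Mmp14* stood at 1873 and 1560 CPM in mutant and 1236 and 994 CPM in control members. Its log2 fold change of 0.68 (standard error 0.144, adjusted p = 0.00795) passed the test but not the fold threshold, and without the members that held a mural UMI it was 0.69 with adjusted p = 0.0562. Without those that held an osteoclast or leukocyte UMI it was 0.58 with adjusted p = 0.116. Without mutant 1 it was 0.55 with adjusted p = 0.122. *Mmp11* stood at 68.4 and 81.0 CPM against 52.3 and 49.0 CPM (0.62, adjusted p = 0.102). The gelatinase gene *Mmp2* stood at 153 and 171 CPM against 205 and 181 CPM and was not called.

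Among 8 tested genes of protease inhibitors and the plasminogen system, 2 rose, both of which passed the filter through mutants alone. Among these, *Plat*, the tissue plasminogen activator, stood at 87.9 and 81.9 CPM in mutants and 20.02 and 23.8 CPM in controls (log2 fold change 2.01, adjusted p = 0.000328), and had 1.59 without the members that held an osteoclast or leukocyte UMI (adjusted p = 0.0553). None of the tissue inhibitors of metalloproteases *Timp1*, *Timp2* and *Timp3* was called. No cathepsin or lysosomal gene was called among 9 tested, with a median log2 fold change of −0.02, although *Ctsb* (−0.71, adjusted p = 0.0189) and *Ctsh* (0.70, adjusted p = 0.0392) passed the test below the fold threshold. *Ctsb* no longer passed without mutant 1 (−0.67, adjusted p = 0.142), mutant 2 (−0.75, adjusted p = 0.0916) or control 1 (−0.45, adjusted p = 0.224).

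Signals to osteoclasts moved in both directions. *Tnfsf11* stood at 378 and 346 CPM in mutant and 176 and 182 CPM in control members (1.08, standard error 0.162, adjusted p = 0.00084). *Wnt5a*, a Wnt ligand, stood at 48.0 and 39.6 CPM against 13.9 and 28.0 CPM (1.10, adjusted p = 0.0487), and *Sema3a*, a semaphorin that restrains osteoclasts, at 52.4 and 65.6 CPM against 108 and 143 CPM (−1.03, adjusted p = 0.0114). The growth factor gene *Csf1* stood at 285 and 292 CPM against 299 and 323 CPM and was not called, and *Tnfrsf11b*, the decoy receptor of RANKL, was below the filter. The call of *Tnfsf11* was lost without the members that held a mural UMI (0.84, adjusted p = 0.114) and without those that held an osteoclast or leukocyte UMI (0.90, adjusted p = 0.101). *Wnt5a*, which passed the filter through mutants alone, had a log2 fold change of −0.05 without the latter and of 1.48 without the former (adjusted p = 0.0706), and lost its call without mutant 1 (0.96, adjusted p = 0.237), mutant 2 (1.24, adjusted p = 0.0989) or control 1 (0.72, adjusted p = 0.263). *Sema3a* lost it without mutant 1 (−0.88, adjusted p = 0.137) or mutant 2 (−1.19, adjusted p = 0.0553), without the members that held a mural UMI (−0.56, adjusted p = 0.450) and without those that held an osteoclast or leukocyte UMI (−0.90, adjusted p = 0.232). No gene of the list was called in either of these subsets.

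Genes of oxygen sensing and glycolysis rose in part. Under low oxygen, hypoxia-inducible factors (HIF) escape prolyl hydroxylation and switch on glycolytic enzymes and their own hydroxylase *Egln3*. Of 21 HIF target genes in the list, 15 could be tested, 7 rose and none fell. The called genes *Egln3* and *Bnip3* and 4 genes that were not called passed the filter through mutants alone. Of the 9 found in both genotypes 5 rose and none fell, with a median log2 fold change of 1.29 against −0.01 for all genes found in both. *Ldha*, the lactate dehydrogenase subunit, stood at 551 and 484 CPM in mutant and 172 and 188 CPM in control members (1.58, standard error 0.160, adjusted p = 7.14e-05). *Pgk1*, phosphoglycerate kinase, stood at 170 and 140 CPM against 51.3 and 54.6 CPM (1.61, standard error 0.215, adjusted p = 0.000385). *Bnip3*, a mitophagy gene, stood at 51.1 and 47.6 CPM against 9.24 and 9.80 CPM (2.42, standard error 0.338, adjusted p = 0.000521).

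The aldolase gene *Aldoa* stood at 385 and 360 CPM against 131 and 102 CPM (1.74, adjusted p = 8.95e-05). *Eno1*, an enolase, stood at 382 and 308 CPM against 146 and 148 CPM (1.29, adjusted p = 0.000471). The collagen prolyl hydroxylase subunit *P4ha1* stood at 131 and 159 CPM against 52.3 and 58.8 CPM (1.45, adjusted p = 0.00084). The 7 called genes, *Egln3*, *Bnip3*, *P4ha1*, *Pgk1*, *Ldha*, *Aldoa* and *Eno1*, were also called without the members that held a mural UMI and without those that held an osteoclast or leukocyte UMI. *Vegfa*, the vascular growth factor and a known HIF target, was not called, with 72.8 and 107 CPM against 95.5 and 81.2 CPM (0.09, adjusted p = 0.837).

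The promoters of 4 of these 7 genes are shown as examples among those whose windows hold a short motif. Each sequence runs 5′ to 3′ on the strand of the gene from 250 bases before to 50 after the start (RefSeq, build GRCm38.p6), with ACGTG, the core of the hypoxia response element, and its reverse complement CACGT in capitals. The windows are chr12:54203825-54204124 on the minus strand for *Egln3*, chr7:138909457-138909756 on the minus strand for *Bnip3*, chr7:46845554-46845853 on the plus strand for *Ldha* and chrX:106186850-106187149 on the plus strand for *Pgk1*.
Egln3: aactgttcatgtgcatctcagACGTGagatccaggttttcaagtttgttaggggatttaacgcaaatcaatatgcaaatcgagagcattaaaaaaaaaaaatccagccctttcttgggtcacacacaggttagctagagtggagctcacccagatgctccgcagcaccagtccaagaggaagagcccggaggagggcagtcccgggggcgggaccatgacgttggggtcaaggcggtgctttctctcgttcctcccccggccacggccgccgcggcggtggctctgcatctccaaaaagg
Bnip3: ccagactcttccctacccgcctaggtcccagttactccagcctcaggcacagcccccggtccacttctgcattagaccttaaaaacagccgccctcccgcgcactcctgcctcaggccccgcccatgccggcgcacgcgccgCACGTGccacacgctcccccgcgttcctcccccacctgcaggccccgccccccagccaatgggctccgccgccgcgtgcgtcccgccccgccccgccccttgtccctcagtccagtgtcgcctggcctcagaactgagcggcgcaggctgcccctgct
Ldha: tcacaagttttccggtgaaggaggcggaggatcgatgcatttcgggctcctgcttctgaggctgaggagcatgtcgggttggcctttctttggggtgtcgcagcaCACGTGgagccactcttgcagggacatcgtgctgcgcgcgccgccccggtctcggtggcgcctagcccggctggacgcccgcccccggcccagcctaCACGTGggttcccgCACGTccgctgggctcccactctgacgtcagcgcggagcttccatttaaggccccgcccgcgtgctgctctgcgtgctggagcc
Pgk1: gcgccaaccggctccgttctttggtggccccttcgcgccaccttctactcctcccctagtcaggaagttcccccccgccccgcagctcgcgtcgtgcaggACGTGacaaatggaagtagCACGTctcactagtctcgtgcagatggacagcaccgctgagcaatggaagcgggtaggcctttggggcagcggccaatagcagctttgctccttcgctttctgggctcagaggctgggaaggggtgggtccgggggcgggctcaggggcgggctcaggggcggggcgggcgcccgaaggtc

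Counting both strands, so that CACGTG counts on each, the motif stood 1 time in the window of *Egln3*, 2 times in that of *Bnip3*, 5 times in that of *Ldha* and 2 times in that of *Pgk1*. Of 12 promoters of the 7 called genes, 7 held it, and 6 of the 7 genes had at least 1 such promoter, the exception being *Eno1*. Over the whole list, 20 of 21 genes were matched to 32 promoters, of which 18 held the motif, against 6447 of 32851 promoters of the same length in the genome (19.6%). A match is a description of the letters and does not show binding.

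Most tested genes of the osteoblast lineage fell. Of 13 tested genes of bone matrix and osteoblast differentiation, 8 fell and none rose, and of the 11 found in both genotypes 7 fell, with a median log2 fold change of −1.12, while *Car3* passed the filter through controls alone. *Runx2* stood at 885 and 1317 CPM in mutant and 2981 and 3045 CPM in control members (−1.39, standard error 0.162, adjusted p = 0.000174). *Sp7*, which encodes osterix, stood at 42.6 and 44.9 CPM against 117 and 136 CPM (−1.47, adjusted p = 0.00084).

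*Alpl*, the alkaline phosphatase of mineralizing cells, stood at 171 and 212 CPM in mutants and 714 and 752 CPM in controls (−1.87, standard error 0.158, adjusted p = 1.93e-05). *Pth1r*, the parathyroid hormone receptor (−1.12), *Ibsp*, bone sialoprotein (−1.03), and the carbonic anhydrase gene *Car3* (−2.37) also fell. *Bglap2*, a copy of the osteocalcin gene of the rule, fell from 198 and 516 CPM to 35.4 and 47.5 CPM. Free RNA was estimated to give 351 CPM in control 1. That estimate exceeds the measured 198 CPM and is too high for this gene, so how much of its level there was background is not known. The abundant matrix genes *Spp1* (18045 and 16636 against 19160 and 23613 CPM) and *Sparc* (2836 and 2766 against 1935 and 2822 CPM) were not called. Without the members that held a mural UMI, *Alpl*, *Car3* and *Bglap2* were still called, while *Runx2* had a log2 fold change of −0.99 (adjusted p = 0.0718) *Sp7* of −0.96 (adjusted p = 0.153), *Ibsp* of −0.56 (adjusted p = 0.323) and *Pth1r* of −0.85 (adjusted p = 0.0487, below the fold threshold). Without those that held an osteoclast or leukocyte UMI, *Ibsp* (−0.69, adjusted p = 0.104) and *Car3* (−1.62, adjusted p = 0.0717) lost their calls.

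Markers of metaphyseal and reticular stroma were lower in 4 of 12 tested cases and higher in none, and lower in 3 of the 10 found in both genotypes. *Wif1*, a secreted Wnt inhibitor of metaphyseal stroma, stood at 108 and 153 CPM in mutant and 687 and 696 CPM in control members (−2.34, standard error 0.182, adjusted p = 9.93e-06). *Cxcl12*, the chemokine of marrow niches, stood at 506 and 676 CPM against 1569 and 2003 CPM (−1.53, adjusted p = 8.95e-05), and the leptin receptor gene *Lepr* at 38.2 and 65.2 CPM against 196 and 197 CPM (−1.86, adjusted p = 0.000327). *Limch1*, which passed the filter through controls alone, was the fourth. These 4 were called without the members that held a mural UMI as well. *Pdgfrb* (689 and 725 against 448 and 575 CPM, 0.53) passed the test in the higher direction but not the fold threshold. It no longer passed without the members that held a mural UMI (0.22, adjusted p = 0.622). *Prrx1* (329 and 369 against 285 and 329 CPM, 0.25) was not called in either direction.

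Of 10 mural genes 6 could be tested, of which *Acta2*, *Kcnj8* and *Mcam* passed the filter through mutants alone. The 3 found in both genotypes, *Cspg4*, *Notch3* and *Abcc9*, rose. *Mcam*, a cell adhesion molecule of pericytes, stood at 101 and 100 CPM in mutant and 9.24 and 7.0 CPM in control members (3.68, standard error 0.312, adjusted p = 1.93e-05). *Acta2*, smooth muscle actin, stood at 79.0 and 96.9 CPM against 3.08 and 21.0 CPM (2.88, adjusted p = 0.000807), with 86.7% of its UMIs of control 2 in a single barcode. *Cspg4* (2.03), the receptor gene *Notch3* (1.55) and the channel subunit *Abcc9* (1.11) followed, beside *Kcnj8*. Without mutant 2, *Notch3* (1.32, adjusted p = 0.0916) and *Abcc9* (0.87, adjusted p = 0.0744) lost their calls. *Rgs5*, which was below the filter, had 225 and 222 CPM against 3.08 and 9.80 CPM and lay in 10.9% and 21.8% of mutant and 3.57% and 7.69% of control members, with 6.48%, 9.34%, 4.05% and 3.52% in endothelial barcodes.

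The summed level of the 10 mural genes was 1066 and 1216 CPM in mutant and 200 and 305 CPM in control members, against means of 14668 and 21672 CPM in the mural class itself. Free RNA was estimated to give 2.50 and 3.43 CPM of *Acta2* in mutant and 9.84 and 4.33 CPM in control members, below the mutant levels. The part of doublets that were not called and of mural cells caught by the rule was not tested. *Mcam*, *Cspg4* and *Notch3* were called also among members without a UMI of the 6 genes named above, while *Abcc9* had 0.22 (adjusted p = 0.749). Without the members that held an osteoclast or leukocyte UMI, *Notch3* (1.04, adjusted p = 0.202) and *Abcc9* (0.93, adjusted p = 0.0592) lost their calls.

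Myofibroblast genes and YAP1/TAZ targets moved in part. Of 14 tested genes linked to fibrosis, 4 rose and 2 fell, and of the 12 found in both genotypes 2 rose and 2 fell (median 0.36). *Loxl2*, a collagen-crosslinking oxidase, stood at 123 and 143 CPM in mutants and 21.6 and 31.5 CPM in controls (2.39, standard error 0.258, adjusted p = 9.74e-05), and *Col3a1* (1.23) also rose, as did *Lox* (1.38) and *Acta2*, which passed the filter through mutants alone. *Tnc*, the matrix glycoprotein tenascin C, stood at 1680 and 1719 CPM against 4827 and 4967 CPM (−1.46, standard error 0.108, adjusted p = 7.74e-06), and the tropomyosin gene *Tpm1* fell by 1.09 on the log2 scale. *Fn1*, fibronectin, had 0.88 with adjusted p = 0.000806, below the fold threshold. *Lox* lost its call without mutant 2 (1.13, adjusted p = 0.0810). Of these, *Loxl2* and *Tnc* were called without the members that held a mural UMI, while *Lox* had 1.56 (adjusted p = 0.0824), *Col3a1* 0.48 (adjusted p = 0.462) and *Tpm1* −0.84, below the fold threshold. Without those that held an osteoclast or leukocyte UMI, *Lox* had 0.62 (adjusted p = 0.426).

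Of 12 tested YAP1/TAZ targets and Hippo genes, 4 rose and none fell, and of the 9 found in both genotypes 3 rose (median 0.47). The rises were those of the receptor kinase gene *Axl*, which passed the filter through mutants alone (49.7 and 59.0 against 16.9 and 18.2 CPM, 1.68, adjusted p = 0.00274), *Amotl2* (1.23), the matricellular gene *Ccn1* (283 and 298 against 135 and 147 CPM, 1.10, adjusted p = 0.00105) and *Crim1* (1.08). *Ccn2* stood at 1059 and 651 CPM against 467 and 539 CPM (0.83, adjusted p = 0.0163), below the fold threshold. Among members free of mural UMIs, *Axl* was still called, while *Amotl2* had 1.30 (adjusted p = 0.0738), *Ccn1* 0.80 (adjusted p = 0.172) and *Crim1* 0.22 (adjusted p = 0.788). Without those that held an osteoclast or leukocyte UMI, none of the 4 was called, with 1.11 for *Axl* (adjusted p = 0.235), 0.78 for *Amotl2* (adjusted p = 0.347), 0.32 for *Ccn1* (adjusted p = 0.551) and 0.84 for *Crim1* (adjusted p = 0.323). In that subset *Thbs1* of the same list was called higher, which was not called among all members. Without mutant 2 *Amotl2* (1.00, adjusted p = 0.0982) and *Crim1* (0.92, adjusted p = 0.0882) lost their calls. Among 8 tested genes of the Notch pathway *Notch3* alone was called (adjusted p = 0.00483, 0.0916 without mutant 2 and 0.202 without members that held an osteoclast or leukocyte UMI), and *Hes1* had 0.87 (adjusted p = 0.0134).

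Signals to vessels split evenly, with 4 of 14 tested genes higher and 4 lower, and 2 and 3 of the 11 found in both genotypes (median −0.91). *Angpt2*, a ligand that destabilizes vessels, stood at 141 and 150 CPM in mutant and 12.3 and 35.0 CPM in control members (2.65, standard error 0.327, adjusted p = 0.000234). Placental growth factor, *Pgf*, stood at 182 and 170 CPM against 67.7 and 91.0 CPM (1.21, adjusted p = 0.00207), and *Tgfb2* (1.61) and *Tgfb3* (1.35) rose with it. *Angpt2* and *Tgfb2* passed the filter through mutants alone and *Pdgfd* through controls alone. The lymphangiogenic factor *Vegfc* stood at 39.96 and 71.0 CPM against 106 and 162 CPM (−1.21, adjusted p = 0.0163), and the guidance genes *Ntn1* (−1.79) and *Slit2* (−1.20) fell beside *Pdgfd*. *Vegfc* lost its call without mutant 1 (−0.85, adjusted p = 0.185). Among members free of mural UMIs, *Angpt2*, *Pdgfd* and *Ntn1* were still called, while *Pgf* had 1.08 (adjusted p = 0.0741), *Tgfb2* 1.40 (adjusted p = 0.0887), *Tgfb3* 1.21 (adjusted p = 0.0740), *Vegfc* −0.95 (adjusted p = 0.153) and *Slit2* −0.85 (adjusted p = 0.0964). Without those that held an osteoclast or leukocyte UMI, *Tgfb2* (0.57, adjusted p = 0.549), *Ntn1* (−1.29, adjusted p = 0.152) and *Slit2* (−0.44, adjusted p = 0.191) lost their calls.

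Cartilage genes gave 2 rises and 3 falls among 8 tested, and 1 and 2 among the 4 found in both genotypes. *Sox5* (50.6 and 51.1 against 148 and 237 CPM, −1.86, adjusted p = 0.000327), *Col11a2* (−1.75) and *Col11a1* (−1.16) fell, of which *Col11a2* passed the filter through controls alone, as *Prg4* did through mutants alone. The rises, *Prg4* and *Chad* (1.53), each had most UMIs of mutant 1 in a single barcode, 94.3% and 70.8% of them, and lost their calls without that library (0.38 and 1.03, adjusted p = 0.618 and 0.158). *Col11a2* lost its call without mutant 1 (−2.33, adjusted p = 0.0545), mutant 2 (−1.33, adjusted p = 0.151) or control 2 (−1.14, adjusted p = 0.175), and *Col11a1* without mutant 1 (−1.04, adjusted p = 0.0679). Among members free of mural UMIs, *Sox5* had −1.60 (adjusted p = 0.0630), *Col11a2* −1.33 (adjusted p = 0.182) and *Col11a1* −0.34 (adjusted p = 0.694). Free RNA was estimated to give 108 CPM of *Col11a1* and 51.6 CPM of *Col11a2* in control 1, where members held 117 and 21.6 CPM, and for *Chad* 65.2 and 30.6 CPM in controls, above the 16.9 and 26.6 CPM measured there. The list held 17 genes, and the rule kept barcodes with high *Col2a1* or *Col10a1* out of the members.

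**Figure D4:**
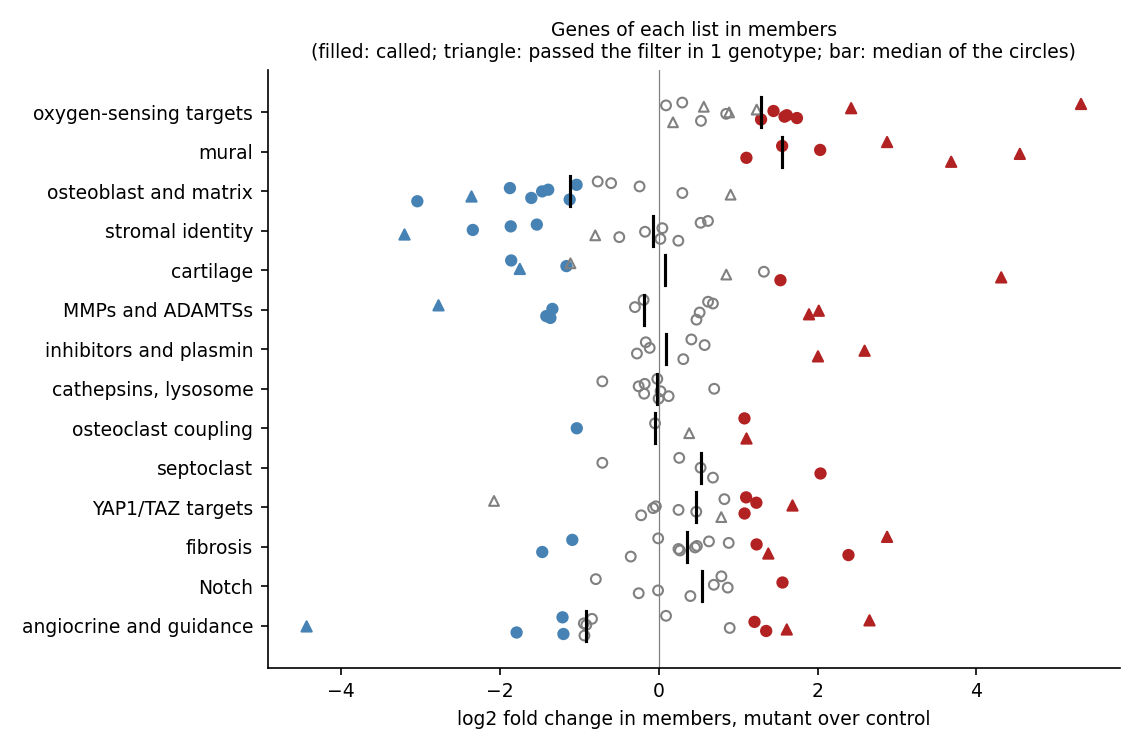
Log2 fold change of mutant over control members for each tested gene of 14 lists, with called genes filled (red higher, blue lower), other genes open and grey, and triangles for genes that passed the filter in 1 genotype alone. Black bars are medians over the circles, 1.29 for oxygen-sensing targets, −1.12 for osteoblast and matrix genes and −0.02 for the cathepsins.

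Markers of other cell types were measured in the members beside the mural genes above. An osteoclast or leukocyte UMI lay in 52.3% to 63.2% of the members of each library. The summed level of 12 leukocyte markers was 40.9 and 59.0 CPM in mutant and 93.9 and 58.8 CPM in control members, against means of 1562 and 7148 CPM in the leukocyte class. Endothelial markers other than *Cdh5* summed to 10.7 and 18.1 CPM against 168 and 12.6 CPM, the high value being that of control 1. Osteoblast markers summed to 1660 and 2028 CPM against 3157 and 4753 CPM, compared with 151062 and 159561 CPM in osteoblasts, and this sum was higher in both controls, as were the osteoblast genes above. Chondrocyte markers summed to 132 and 127 CPM against 180 and 202 CPM, osteocyte markers to 71.5 and 59.0 CPM against 115 and 82.6 CPM, and erythroid markers to 464 and 610 CPM against 582 and 266 CPM. Proliferation markers summed to 250 and 228 CPM against 130 and 272 CPM. Doublets were called for 4, 0, 6 and 4 members of the mutant and control libraries. Without these members, 406 of 7237 tested genes were called higher and 359 lower. Of the called genes named here that could still be tested, *Prg4* (0.90, adjusted p = 0.0809) and *Chad* (0.80, adjusted p = 0.111) no longer passed the test. The part of transcripts of other cell types in the results was not tested.

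The members were then compared with 3 other skeletal classes, which were fixed by marker genes and not by a measure of likeness, *Wif1*-positive metaphyseal stromal barcodes, hypertrophic chondrocytes (*Col10a1*) and osteoblasts (*Bglap*), to see where the genotype effect differed. Among 8581 genes, 213 had an effect that was larger (more positive) in members than in metaphyseal stroma (2.48%) and 142 one that was smaller (1.65%). Against hypertrophic chondrocytes the numbers were 388 (4.52%) and 392 (4.57%), and against osteoblasts 170 (1.98%) and 297 (3.46%). A gene could enter this fit through any of the classes in it, while the test in members alone held 7281 genes. The counts thus include genes that were below the filter in members. For these genes no effect in members was tested on its own, and the counts are a description. Without mutant 1 the 6 counts were 142 and 54, 294 and 247, and 69 and 114. Without mutant 2 they were 88 and 50, 259 and 245, and 83 and 189, without control 1 101 and 52, 243 and 184, and 102 and 192, and without control 2 148 and 155, 295 and 379, and 88 and 279. The tests within these classes called 7.65%, 11.2% and 1.74% of genes.

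Oxygen-sensing genes rose in metaphyseal stroma and hypertrophic chondrocytes as well. Of the list, 11 of 17 tested genes rose in metaphyseal stroma, 17 of 19 in hypertrophic chondrocytes and 3 of 13 in osteoblasts, under the same filter within each class. In the test of the difference over 20 genes, *Egln3* alone had a larger effect in members than in metaphyseal stroma (difference 3.38, standard error 0.641, adjusted p = 0.00876), a size that rests on the 7 UMIs of control members. Against hypertrophic chondrocytes none was larger and 7 were smaller, among them *Pgk1* (−1.21, adjusted p = 0.00238) and *Pfkfb3*, which was below the filter in members. Against osteoblasts *P4ha1* (1.59, adjusted p = 0.000129) and *Aldoa* (1.28, adjusted p = 0.000603) were larger and none was smaller. *Adm* also passed this test but was below the filter in members, where it had no UMI in controls, so that its difference has no measured size.

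Part of the osteoblast genes had a more negative genotype effect in members than in osteoblasts, while few differences from metaphyseal stroma were detected. *Runx2* changed by −1.43 in metaphyseal stroma, −0.87 in hypertrophic chondrocytes and −0.19 in osteoblasts (adjusted p = 0.182). Its difference was −1.11 against osteoblasts (adjusted p = 0.00243) and 0.04 against metaphyseal stroma (standard error 0.175, adjusted p = 0.931). *Alpl* changed by −1.17, −1.97 and 0.35 in these classes, in the same order, with a difference of −2.11 against osteoblasts (adjusted p = 7.65e-05). Of 16 genes of the list, 8 had a more negative effect in members than in osteoblasts and 1 a more positive one. Compared with metaphyseal stroma, these numbers were 1 and 0. The osteoblast class was chosen by high *Bglap* and the members by a limit on it. Genes that go with *Bglap*, such as its copy *Bglap2*, may thus not fall freely in that class, and the differences from it are a description.

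*Wif1* separated the members from all 3 classes, with differences of −2.05, −2.06 and −2.97 against metaphyseal stroma, hypertrophic chondrocytes and osteoblasts (adjusted p = 0.00123, 0.000562 and 9.64e-05). *Wif1* defined the metaphyseal stromal class, so its level there cannot fall freely. *Loxl2* (differences 1.37, 1.65 and 2.81) and *Cspg4* (1.19, 2.34 and 1.36) had larger effects in members than in each of the 3. *Mmp14* fell by 0.52 in metaphyseal stroma while it was higher in mutant members (difference 1.21, standard error 0.196, adjusted p = 0.00342). *Tnfsf11* had a larger effect in members than in hypertrophic chondrocytes (1.45, adjusted p = 0.00376), and its difference from metaphyseal stroma was 0.35 with adjusted p = 0.546.

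**Figure D5:**
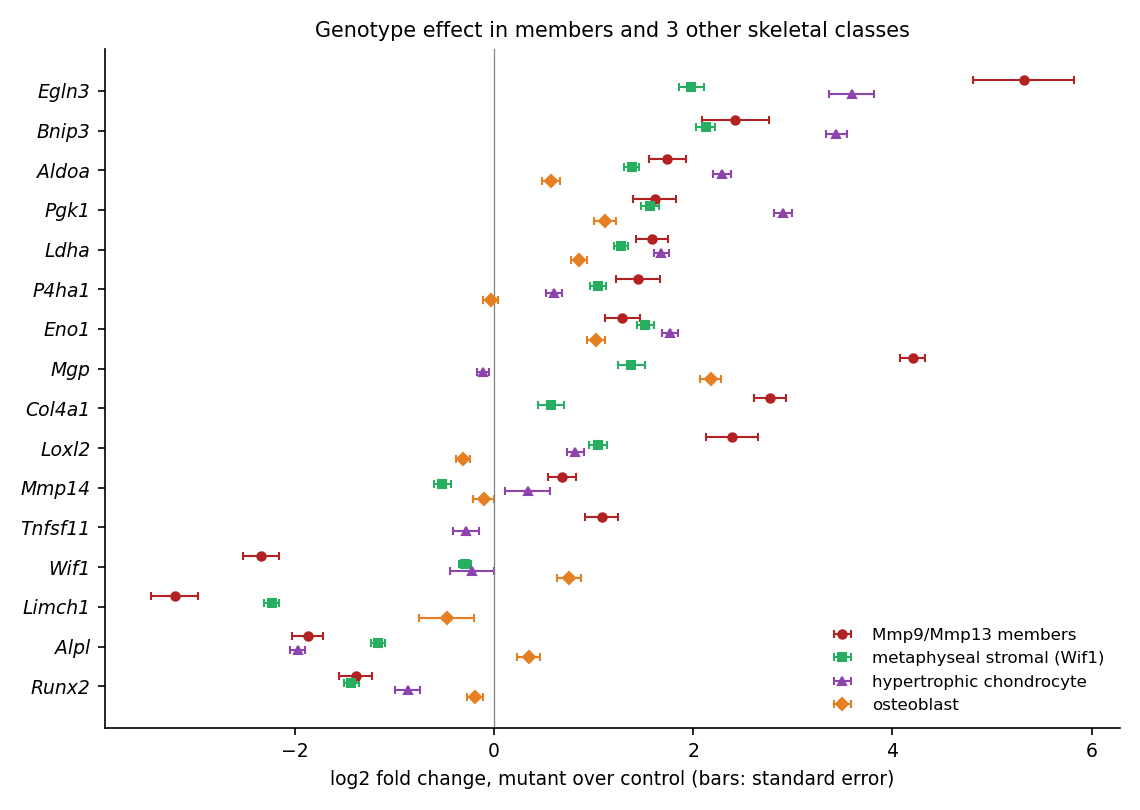
Log2 fold change of mutant over control with its standard error for 16 genes in members (red circles), metaphyseal stroma (green squares), hypertrophic chondrocytes (purple triangles) and osteoblasts (orange diamonds), each class tested on its own, with no point where a gene was below the filter. *Egln3* and *Mgp* lie farthest to the right in members, at 5.32 and 4.20, and *Wif1* and *Limch1* farthest to the left, at −2.34 and −3.20.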

How the data were processed

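Libraries were made from metaphyseal cells of femur and tibia with the 10x 3′ V3 chemistry, 2 per genotype, grouped by the genotype in the labels. The authors trimmed reads with cutadapt 3.5 and aligned and counted them with STARsolo 2.7.10a on GRCm39 (versions per the submitters' processing notes), with GENCODE gene models to which the Cre and reporter sequences had been added. The deposited values are unfiltered expected counts per gene and barcode, not normalized, in which reads that match several genes are shared out by expectation maximization over exons and introns, so copies of a gene can take each other's reads.

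Barcodes were kept with at least 1000 UMIs, at least 800 genes, under 15% mitochondrial and under 5% haemoglobin UMIs. Members were found by the rule given above, and all other barcodes were assigned in a fixed order by *Ptprc*, *Cdh5*, *Mepe*, *Bglap*, *Col10a1*, *Col2a1*, *Myh11* or *Rgs5*, *Lepr* with *Adipoq*, *Wif1* (at least 2 UMIs) and *Dpt*. The members and the gene lists were chosen with earlier results of these data known. Doublets were scored with Scrublet in scanpy 1.11.5, marked at an expected rate of 0.8% per 1000 barcodes and kept. Free RNA made up an estimated 0.856% to 4.14% of member UMIs, from haemoglobin genes in members and in barcodes under 100 UMIs. The highest estimate, that of control 1, gave more than was measured for some genes, such as *Bglap2*, and is too high for them.

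Counts were summed per library and class, rounded and compared between genotypes with edgeR 4.0.16 (quasi-likelihood test, TMM, R 4.3.3), with Benjamini-Hochberg adjustment over all genes tested. Genes entered the test where filterByExpr kept them and at least 20% of members of 1 genotype held a count, and p-values rest on the spread between 2 libraries per genotype. The difference of the genotype effect between members and each of 3 other skeletal classes was tested in 1 fit. This fit held the members and all 3 classes, with the library as a block. Genes entered it where the share of 20% was reached in any of these classes and filterByExpr kept them. Numbers of barcodes per class were tested with the passing barcodes as library size. The standard error was taken as the fold change (log2) over the root of its F value. Named genes are the 10 largest rises and 10 largest falls among called genes without overlap between genotypes, and the tested genes of the lists. Lists are described by counts and medians, without a set test, and some of their genes are counted but not reported singly here. Alternatives were DESeq2 1.42.0, other filters, scalings and gates, each library left out and the replicate number as a block, and single genes were judged there by the adjusted p alone. The models were tested on simulated data. Shares carry exact Clopper-Pearson intervals at 95%. Motifs were searched in 300-base RefSeq promoters. Python 3.11.15 with scipy 1.17.1, numpy 2.4.6 and pandas 2.3.3 was used.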

Additional observations from a re-analysis of the deposited data

Results flagged for a closer look

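Results are listed here because the effect of the genotype differed between the members and 1 of 3 other skeletal classes in a test of the difference itself. Against metaphyseal stroma 213 genes had a larger (more positive) effect and 142 a smaller (more negative) one. The numbers were 388 and 392 against hypertrophic chondrocytes and 170 and 297 against osteoblasts. They include genes that were below the filter in members and entered the fit through another class. Of the genes with the largest differences, 12 results had a test in both classes, and the others lacked one because the gene was below the filter in the members or in the class.

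*Fbn2*, which encodes the microfibril protein fibrillin 2, went in opposite directions in members and metaphyseal stroma. It stood at 95.9 and 107 CPM in mutant and 15.4 and 1.40 CPM in control members, but at 6.54 and 5.95 CPM in mutant and 67.3 and 58.8 CPM in control stroma, a difference of 6.95 on the log2 scale (standard error 0.455, adjusted p = 7.74e-06, quasi-likelihood test of edgeR, Benjamini-Hochberg method). Against osteoblasts, at 69.0 and 92.7 CPM in mutants and 126 and 110 CPM in controls, the difference was 4.36 (standard error 0.437, adjusted p = 7.65e-05). *Sntb1*, a syntrophin of the dystrophin complex, differed from metaphyseal stroma by 3.59 (adjusted p = 0.000552), with 68.7 and 107 CPM against 55.4 and 16.3 CPM in members and 11.3 and 8.56 CPM against 49.6 and 49.6 CPM in stroma. *Ddit4l* fell in members and not in stroma, a difference of −3.65 (adjusted p = 0.0033), and stood in stroma at 48.8 and 41.9 CPM in mutants and 31.0 and 37.6 CPM in controls.

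*Ndufa4l2* rose more in members than in metaphyseal stroma by 3.56 (adjusted p = 0.0107) and than in osteoblasts by 3.88 (adjusted p = 0.00532). In stroma it stood at 1085 and 1050 CPM in mutants and 328 and 371 CPM in controls, so that mutant members, at 280 and 206 CPM, remained below control stroma. Its level in control members of 4.62 and 8.40 CPM, in control 1 close to the estimate for free RNA, sets the size of both differences. Both lost their call without mutant 1 (adjusted p = 0.0801 and 0.0792), and the first also without mutant 2 (adjusted p = 0.0639). *Gm26802* differed from osteoblasts by 3.79 (adjusted p = 0.0298) and lost the call without mutant 1 or mutant 2 (adjusted p = 0.141 and 0.125).

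*Mgp* differed from hypertrophic chondrocytes by 4.39 (standard error 0.218, adjusted p = 1.14e-07), where it stood at 14926 and 16295 CPM in mutants and 17254 and 17440 CPM in controls. *Dhx58os* differed from them by 4.37 (adjusted p = 0.00106), with means of 27.4 CPM in mutant and 1.54 CPM in control members. That control mean lies below the level of 3 counts, 4.62 and 4.20 CPM in the control libraries, and sets the size of the difference. The means in hypertrophic chondrocytes were 273 CPM in mutants and 291 CPM in controls. *H2-Q7*, a class I major histocompatibility gene with near-identical copies, fell from 85.2 and 77.1 CPM to 13.3 and 5.73 CPM in members and rose from 1.97 and 9.28 CPM to 52.2 and 49.6 CPM in hypertrophic chondrocytes, a difference of −6.17 (standard error 0.510, adjusted p = 9.9e-06). *Cytl1*, a cytokine-like gene of cartilage, differed by 4.64 (adjusted p = 0.0155), stood at 606 CPM in members of mutant 1 but 44.0 CPM in those of mutant 2, and lost the call without mutant 1 (2.07, adjusted p = 0.0671), control 1 (adjusted p = 0.0838) or control 2 (adjusted p = 0.101). *Fam189a2* differed from osteoblasts by 3.68 (adjusted p = 0.0465) and lost the call without mutant 2 (2.59, adjusted p = 0.159), control 1 (adjusted p = 0.145) or control 2 (adjusted p = 0.177).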

How the results depend on the processing

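The larger number of members in mutants kept its direction and passed the test in all fits with a library left out (log2 fold changes 0.74 to 1.02), with the replicate number as a block (0.88), and under the other scalings and filters (0.66 to 0.96), but it was −0.28 with a gate on *Mmp13* alone, which takes in other cells, and −0.031 without members that held a mural UMI. The counts of changed genes were 208 to 349 higher and 163 to 393 lower with a library left out, 166 and 173 with DESeq2, 102 and 126 without members with osteoclast or leukocyte UMIs, 105 and 124 without those with a mural UMI, 218 and 221 with as many members drawn from each library as the smallest held, 288 and 192 of 20949 genes without the filter, and 159 and 182 over the genes found in enough members of both genotypes, by construction fewer. Fewer members entered several of these fits, and the cause of the other shifts was not tested. With totals in place of TMM factors the split was 258 and 398, with a median of −0.10 over all genes. Of the 653 called genes, DESeq2 called 339. All 653 kept their sign, which is no separate test, since both fits used the same summed counts. With a gate on *Mmp13* alone, *Ddit4l* (0.33), *Sox5* (0.50), *Amotl2* (−0.18) and *Crim1* (−0.12) changed sign, and *Wnt5a* was −0.052 without members with osteoclast or leukocyte UMIs. Genes larger and smaller in members than in metaphyseal stroma numbered 88 to 148 and 50 to 155 with a library left out (466 and 242 without the filter), against hypertrophic chondrocytes 243 to 295 and 184 to 379 (517 and 619), and against osteoblasts 69 to 102 and 114 to 279 (595 and 355). Samples with the same replicate number did not deviate together (r = −0.03 over 7281 genes). This single correlation, taken on sums of few members, cannot decide whether the numbers pair the libraries. The replicate block gave 294 and 323 genes, called 604 of the 653 again and, among genes named here, took the call from *Wnt5a* (adjusted p = 0.0721).

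With 300 members, low genes rest on few UMIs, 3 counts correspond to 2.64 to 4.62 CPM, and 2 libraries per genotype leave the spread between animals largely unmeasured. Cells were chosen by 2 proteases, so loss of either in a genotype would remove cells rather than lower a level.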

Other observations

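A few genes were chosen after their values were seen. The basement membrane collagen gene *Col4a1* stood at 1197 and 1395 CPM in mutant and 176 and 221 CPM in control members (log2 fold change 2.77, standard error 0.160, adjusted p = 1.72e-06, quasi-likelihood test of edgeR, Benjamini-Hochberg method). *Lpl*, lipoprotein lipase, stood at 2351 and 2567 CPM against 465 and 276 CPM (2.79, standard error 0.202, adjusted p = 7.15e-06). In both, the mutant libraries lay well above the controls.

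The mural class, which was not compared by a test, gave these values for genes that rose in members. *Egln3* stood there at 177 and 215 CPM in mutants and at 2.68 and 12.4 CPM in controls, and *Mgp* at 23601 and 21022 CPM against 3657 and 3289 CPM. *Ndufa4l2* stood at 656 and 688 CPM against 352 and 319 CPM and *Col4a1* at 2338 and 2375 CPM against 884 and 840 CPM. *Aoc3*, at 365 and 352 CPM against 346 and 356 CPM, was at like levels in mural barcodes of both genotypes.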
